A study of Mus musculus with 9 samples.

Results

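The 10 genes Itgae, Flt3, Zbtb46, Fscn1, Clec9a, Batf3, Irf4, Irf8, Il12b and Cd209a, which are used to recognise dendritic cells or their maturation, were followed in RNA of mouse lung macrophages after ozone. They were chosen by symbol, and all 10 were matched through GENCODE M21 to rows of a table of 54281 gene identifiers. All 10 also passed the filter on low counts, which left 15713 genes to test. The cells came from female wild-type mice of 12 weeks (the strain was not given in the sources used here), lavaged with massage of the lung. The air group (3 mice) breathed air only. The ozone groups breathed 0.8 ppm ozone for 3 h and were killed 24 h (3 mice) or 72 h (3 mice) later. All were killed with ketamine and xylazine, and none carried a transgene or deletion by its labels. The air mice have no time of their own, so both ozone times were set against the same 3 air libraries. Each library is labelled as macrophages from 1 of 3 mice of its group, and nothing in the labels says that dendritic cells were sorted in or out.

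Dendritic cells take up antigen in a tissue, carry it to the draining lymph node and present it to T cells. They arise from bone marrow precursors that need the receptor FLT3 and its ligand, and the factor ZBTB46 marks the conventional lineage. Conventional dendritic cells fall into a first type, which depends on IRF8 and BATF3, carries CLEC9A and XCR1 and in the lung also the integrin CD103 (Itgae), and a second type, which uses IRF4 and of which some carry CD209a. On maturation either type turns on the migration receptor CCR7 and the actin bundler fascin (Fscn1), and can secrete IL-12, whose p40 chain is the product of Il12b. Several of these genes are not private to dendritic cells: macrophages and B cells also use Irf8, activated B cells and alternatively activated macrophages use Irf4, and epithelial T cells carry CD103. Lavaged lung cells are mostly alveolar macrophages, with few dendritic cells.

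At 72 h Itgae, Flt3, Zbtb46 and Fscn1 were higher than in air, by 2.29-fold, 2.86-fold, 1.98-fold and 2.79-fold, in edgeR's quasi-likelihood test over 9 libraries. Over all tested genes, 1.71% were called higher and 3.77% lower at 72 h against air. None of the 10 genes was called at 24 h, where 0.00636% of all tested genes were called. From 24 h to 72 h Itgae, Flt3, Zbtb46, Clec9a and Il12b rose and Batf3 fell, where 5.39% of all tested genes were called higher and 12.8% lower. Irf4, Irf8 and Cd209a were called in no comparison. These are RNA levels of whole cell pellets, in which more cells of a type and more RNA per cell cannot be told apart.

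Before these results, 2 libraries have to be named, since they held RNA of cells that the other 7 nearly lacked. The 10 B cell markers summed to a level of 1475 in 24 h replicate 2 and 834 in 72 h replicate 1, in CPM (the count relative to the scaled library total), and to 1.91 to 10.7 CPM elsewhere. The 7 markers of serous cavity macrophages stood at 603 and 793 CPM against 3.65 to 6.96, the 10 T cell markers at 774 and 76.6 CPM against 2.62 to 12.6, and the 8 markers of plasmacytoid dendritic cells at 243 and 100 CPM against 18.8 to 25.2. The largest parts of this last sum were Ccr9 (70.1 CPM), Spib (62.9) and Ly6d (58.2) in 24 h replicate 2. In 72 h replicate 1 they were Spib (38.3 CPM) and Tcf4 (31.5). Siglech had 7.20 and 2.67 CPM in these 2 libraries and 0.220 to 1.07 elsewhere. Which cells gave this sum was not tested. The 10 alveolar macrophage markers were lower in these 2 libraries (20056 and 23322 CPM) than elsewhere (25495 to 32409). The mitochondrial share of counts was 5.25% and 6.18% in them and 2.71% to 3.07% elsewhere. In a further library, Air replicate 2, Xist was 2.42 CPM, with 887 to 1482 in the remaining 8 libraries, although all mice were described as female. Library totals were 47095543 to 60248305 estimated counts, at which 3 counts equal 0.0499 to 0.0632 CPM. The results below are over all 9 libraries unless 7 are named, which are those without 24 h replicate 2 and 72 h replicate 1.

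**Figure D1:**
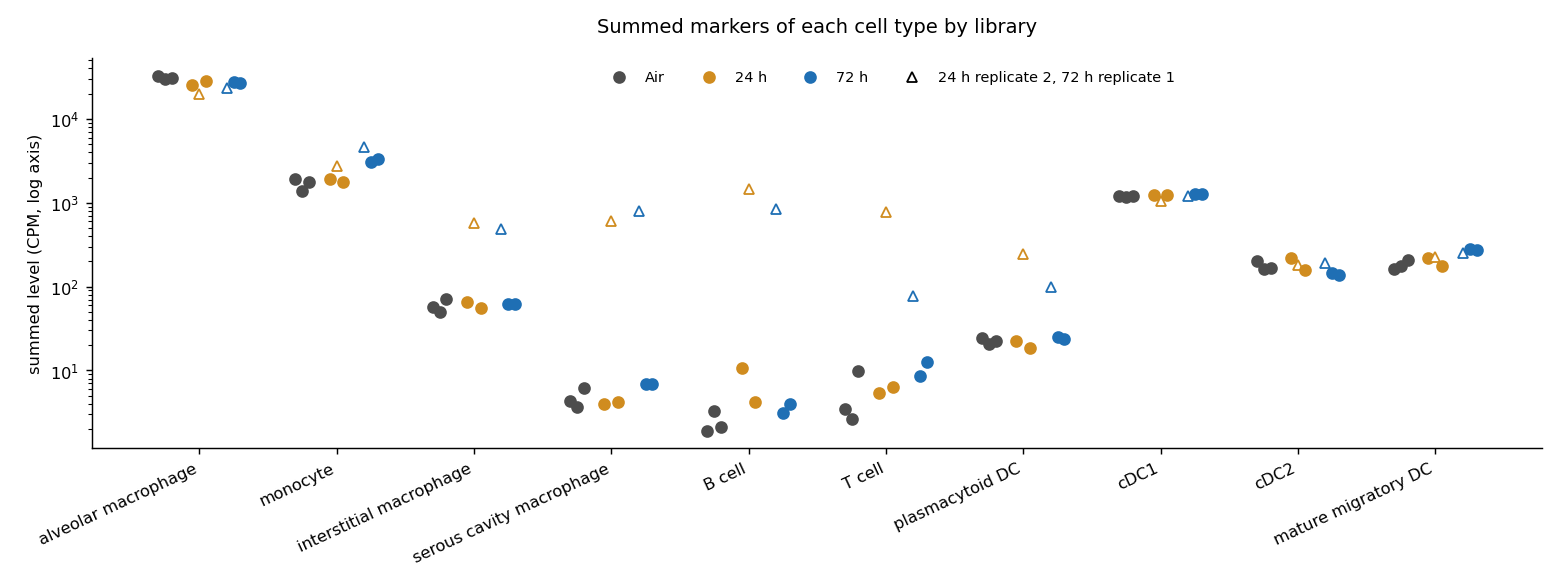
Summed level of the markers of each cell type (CPM, log axis) in each of the 9 libraries, where DC stands for dendritic cell and cDC1 and cDC2 for its conventional first and second types. Triangles are 24 h replicate 2 and 72 h replicate 1, which lie above the other 7 libraries for B cell, T cell, serous cavity macrophage and plasmacytoid dendritic cell markers and below them for alveolar macrophage markers.

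The labelled cell type was seen in every library: the macrophage lectin Siglecf had a mean of 471 ± 49.8 CPM in the air group, 314 ± 75.4 in the 24 h group and 425 ± 40.0 in the 72 h group (SD, n = 3). Of 10 alveolar macrophage markers, edgeR called 4 lower at 72 h against air (Ear1, Marco, Krt79 and Fabp1) and 0 higher, and over 7 libraries 5 lower. At 24 h it called 0, with 7 lower and 1 higher at an unadjusted p under 0.05. Markers that define dendritic cells were low beside it. Xcr1, the chemokine receptor of first-type dendritic cells, had 0.920 ± 0.198 CPM in air (SD, n = 3), and Siglech, of plasmacytoid cells, 0.328 ± 0.115 CPM. Other listed markers stood higher in air, with 9.34 ± 0.496 CPM for Clec9a, 17.3 ± 0.883 for Tlr3 and 55.8 ± 3.94 for Cd83. The sum over 10 first-type markers was 1187 to 1217 CPM in air, but Wdfy4 (554 ± 41.4 CPM) and Naaa (507 ± 44.3 CPM) made up most of it. The sum over 10 markers of mature migratory dendritic cells was 164 to 205 CPM in air, 175 to 222 CPM in 24 h replicates 1 and 3, and 276 to 280 CPM in 72 h replicates 2 and 3. The 9 second-type markers had 161 to 205 CPM in air and 139 to 146 CPM in 72 h replicates 2 and 3. Klf4 made up most of this sum, with a mean of 159 CPM in air and 119 in those 2 libraries. Over 7 libraries the median log2 change of the 8 tested second-type markers was 0.035, and 4 changes were positive. Markers of other cell types also moved at 72 h against air. The monocyte sum was 1382 to 1944 CPM in air and reached 3038 to 4604 at 72 h, mostly the matrix gene Fn1. The monocyte receptor Ccr2 had 15.4 to 22.6 CPM in air and at least 33.0 in every library at 72 h, and was called higher over 7 libraries, as was Fn1 over 7 and over 9. Of the 9 monocyte markers, 7 were not called over 7 libraries and 8 were not called over 9. Over 7 libraries 7 of the 9 changes were positive, and 1 marker was lower at an unadjusted p under 0.05 (edgeR). Of 8 markers of alveolar type 1 cells and epithelium, 5 were called higher over 9 and over 7 libraries (Ager, Aqp5, Cldn18, Krt8 and Krt18), with a median log2 change of 2.24 and 2.35. Of 6 tested neutrophil markers 1 was called higher over 9 libraries (Cxcr2) and 3 over 7. Of 10 T cell markers 0 were called by edgeR over 7 libraries (2 at an unadjusted p under 0.05), but all 10 changes were positive, with a median of 1.08. Over 7 libraries edgeR also called higher 2 of 5 alveolar type 2 markers (Sftpb and Lamp3) and 2 of 6 tested serous cavity macrophage markers (Gata6 and Timd4). Of 5 tested interstitial macrophage markers it called 1 higher (C1qa). In these 3 lists it called 0 lower, and over 9 libraries it called 0. Gata6 was at most 0.294 CPM in the 7 libraries. The part of these cell types in the results that follow was not tested.

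The promoters of 3 genes that rose at 72 h against air and of Batf3, which fell from 24 h to 72 h, are shown first (RefSeq, GRCm38.p6, 250 bases before to 50 after the start, 5′ to 3′). They are Flt3 (chr5:147400440-147400739, minus strand), Zbtb46 (chr2:181424339-181424638, minus strand), Fscn1 (chr5:142960105-142960404, plus strand) and Batf3 (chr1:191098164-191098463, plus strand). Capitals mark a match on either strand to TGANTCA (the AP-1 and BATF site), GAGGAAG (PU.1), GAANNGAAA (the interferon response element core) or GGGANNTCC (NF-kB).
Flt3: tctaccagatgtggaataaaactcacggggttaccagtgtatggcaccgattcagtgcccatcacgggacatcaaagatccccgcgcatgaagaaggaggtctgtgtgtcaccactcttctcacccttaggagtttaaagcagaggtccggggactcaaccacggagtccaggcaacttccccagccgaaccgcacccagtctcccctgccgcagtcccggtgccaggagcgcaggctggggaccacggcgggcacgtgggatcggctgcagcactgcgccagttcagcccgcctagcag
Zbtb46: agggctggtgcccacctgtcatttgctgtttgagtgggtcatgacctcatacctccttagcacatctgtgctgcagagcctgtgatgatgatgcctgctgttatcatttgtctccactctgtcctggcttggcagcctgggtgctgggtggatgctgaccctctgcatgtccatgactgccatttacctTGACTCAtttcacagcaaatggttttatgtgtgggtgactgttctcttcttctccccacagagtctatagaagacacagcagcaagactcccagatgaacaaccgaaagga
Fscn1: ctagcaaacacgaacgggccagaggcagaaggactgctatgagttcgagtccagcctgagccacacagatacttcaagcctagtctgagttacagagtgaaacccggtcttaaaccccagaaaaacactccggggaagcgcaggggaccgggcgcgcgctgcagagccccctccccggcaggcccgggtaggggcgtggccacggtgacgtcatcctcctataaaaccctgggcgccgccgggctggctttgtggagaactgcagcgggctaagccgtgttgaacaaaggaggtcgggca
Batf3: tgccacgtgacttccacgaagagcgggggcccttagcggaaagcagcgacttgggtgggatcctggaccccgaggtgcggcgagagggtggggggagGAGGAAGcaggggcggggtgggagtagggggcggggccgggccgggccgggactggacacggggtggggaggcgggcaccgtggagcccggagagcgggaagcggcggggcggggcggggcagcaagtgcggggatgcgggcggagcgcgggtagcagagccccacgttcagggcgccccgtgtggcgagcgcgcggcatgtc
Zbtb46 holds the AP-1 letters 61 bases before its RefSeq start, and Batf3 the PU.1 letters 153 bases before. The Flt3 and Fscn1 windows hold none of the 4 motifs. Of 32817 mouse promoter windows, 7.81% hold the AP-1 letters, 13.6% the PU.1 letters, 7.52% the interferon element core and 4.29% the NF-kB letters. The RefSeq table held a promoter for 9 of the 10 genes, all but Itgae, and among the other 5 the only match was the interferon element core in Cd209a, 9 bases before the start. The windows also differed in base composition. Batf3 has 75.7% G and C with 34 CG pairs, Flt3 61% with 18, Fscn1 61.7% with 21, and Zbtb46 50.7% with 1 CG pair, against a median of 52.7% and 7 pairs over all windows.

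Per kilobase of exon, the 10 genes spanned a wide range in air. Irf8 was highest with 13.6 ± 0.462 CPM per kb, followed by Batf3 with 5.31 ± 1.09, and the 3 air libraries of these neighbours did not overlap. Fscn1 (3.09 ± 0.822), Clec9a (2.84 ± 0.151), Irf4 (2.39 ± 1.13), Itgae (1.53 ± 0.271), Il12b (1.35 ± 0.280), Cd209a (0.939 ± 0.559) and Flt3 (0.601 ± 0.0738) came next in CPM per kb. Each of these overlapped its neighbour in that run, so their order is not resolved step by step. Zbtb46 was lowest with 0.328 ± 0.0647 CPM per kb and did not overlap Flt3 (all SD, n = 3).

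**Figure D2:**
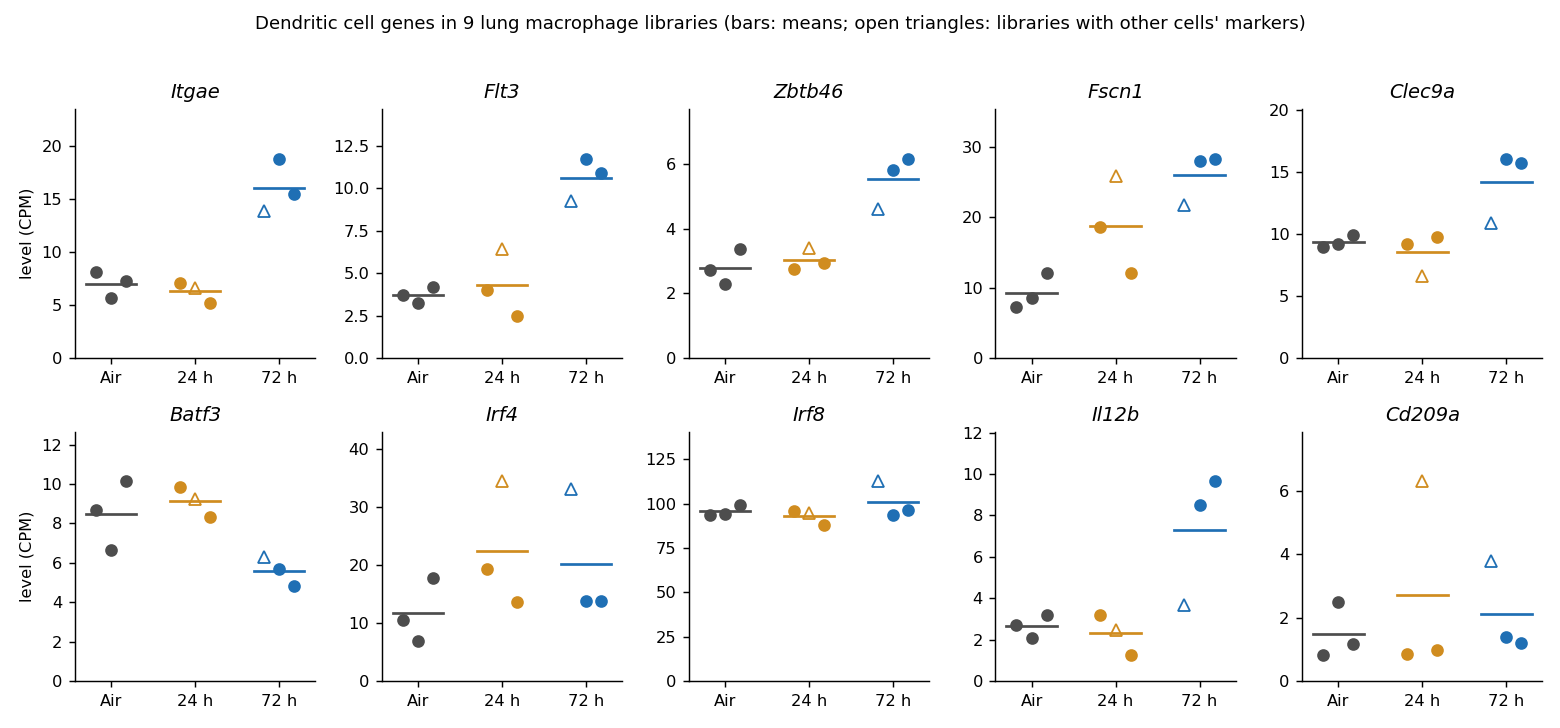
Level of each of the 10 genes (CPM, linear axis from 0) in the 3 air, 3 24 h and 3 72 h libraries, with a bar at each group's mean. Itgae, Flt3 and Zbtb46 are higher in all 3 libraries at 72 h than in any other, while open triangles show that the highest Irf4 and Cd209a values belong to the 2 libraries with markers of other cells.

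Itgae encodes the alpha chain of CD103, which pairs with the beta 7 chain and binds E-cadherin on epithelium (ENSMUSG00000005947.11, GRCm38 chr11:73090583-73147446, plus strand). It had 8.11, 5.67 and 7.24 CPM in the air libraries, 7.09, 6.63 and 5.16 at 24 h and 13.9, 18.8 and 15.5 at 72 h, replicates 1 to 3 in order. Every 72 h library lay above every library of air and 24 h, and the air and 24 h groups overlapped. In edgeR's quasi-likelihood test the log2 change from air to 72 h was 1.20 ± 0.18 (SE, adjusted p = 0.0226), and from 24 h to 72 h it was 1.35 ± 0.18 (adjusted p = 0.00595). At 24 h the log2 change against air was -0.15 ± 0.18 (edgeR, adjusted p = 0.671). Over 7 libraries Itgae was also called at 72 h, with a log2 change of 1.32 ± 0.18 (edgeR, adjusted p = 0.00800). With 1 library left out at a time the change against air stayed between 1.05 and 1.30, and the call was lost without Air replicate 2, Air replicate 3, 72 h replicate 2 or 72 h replicate 3 (edgeR, adjusted p up to 0.127). The call from 24 h to 72 h held in all 9 such fits.

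The 4 calls at 72 h have to be read against all genes. At 24 h edgeR called 0 of the 10 genes against air, where it called 0.00636% of all tested genes (1, lower), and in all 10 the groups overlapped (non-overlap over all genes was 10.4% higher and 9.06% lower). Of the 10, 1 had an unadjusted p under 0.05, DESeq2 called 1 (Fscn1, with 4.72% of all genes) and limma voom called 0. At 72 h edgeR called 4 higher and 0 lower against air, where it called 5.47% of all tested genes, 1.71% higher and 3.77% lower. The median log2 change of the 10 was 0.88, beside -0.01 over all genes tested, and 9 of the 10 changes were positive. DESeq2 called 7 of the 10, with 12.6% of all genes, and edgeR with the replicate number as a block called 0, with 0.223%. All 3 libraries at 72 h lay above all 3 of air for 6 of the genes and below for 1, and over all genes tested these shares were 17.5% and 22.1%. From 24 h to 72 h 5 were called higher and 1 lower, where 18.2% of all tested genes were called, 5.39% higher and 12.8% lower. In those 6 genes the groups did not overlap, as was so for 15% of all genes upward and 22.7% downward. The joint test of any difference among the 3 groups called 7 of the 10, where it called 13.2% of all tested genes.

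**Figure D3:**
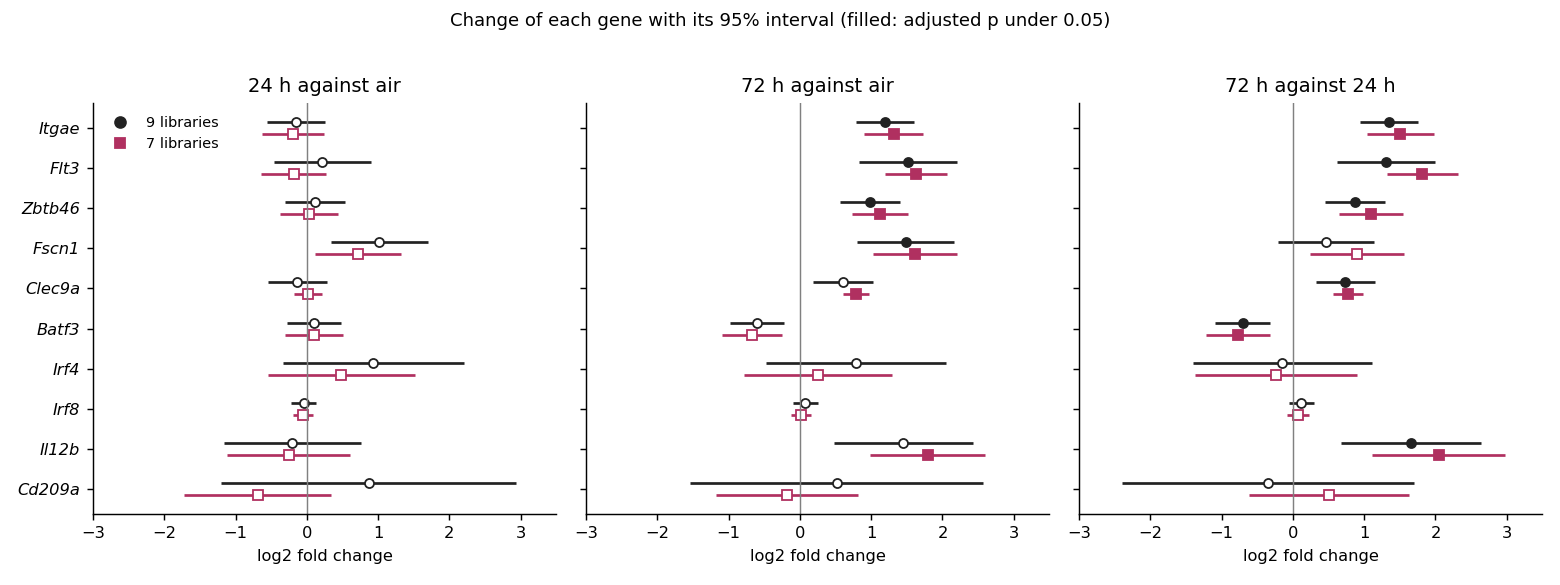
Log2 fold change of each of the 10 genes with its 95% interval in the 3 comparisons, over 9 and over 7 libraries, with filled symbols at an adjusted p under 0.05 (edgeR). No symbol is filled for 24 h against air, 4 are filled for 72 h against air over 9 libraries and 6 over 7 libraries.

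Flt3 is the receptor tyrosine kinase on which dendritic cell precursors and conventional dendritic cells depend (ENSMUSG00000042817.15, chr5:147330741-147400489, minus strand). Its levels were 3.72, 3.25 and 4.16 CPM in the air libraries, 4.02, 6.42 and 2.49 at 24 h and 9.24, 11.7 and 10.9 at 72 h. The 72 h libraries stood above all others, and the highest of the 24 h values came from replicate 2, the library with B and T cell markers. Against air the log2 change at 72 h was 1.52 ± 0.30 (edgeR, adjusted p = 0.0330), and against 24 h it was 1.30 ± 0.30 (adjusted p = 0.0225). Over 7 libraries the change against air was 1.63 ± 0.19 (edgeR, adjusted p = 0.00300). Of the 9 fits that each left out 1 library, 2 kept the call against air, those without 24 h replicate 2 or 24 h replicate 3. Over the 9 the change was 1.42 to 1.61, with adjusted p up to 0.134 (edgeR). The call against 24 h was lost without 24 h replicate 1, 72 h replicate 2 or 72 h replicate 3, with changes of 1.05 to 1.72 over the 9 fits and adjusted p up to 0.0958 (edgeR).

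Zbtb46 encodes a zinc finger repressor found in conventional dendritic cells and their committed precursors (ENSMUSG00000027583.13, chr2:181387762-181459426, minus strand). Its RefSeq promoter printed above lies within the GENCODE gene, so it belongs to a start other than the outermost. The levels were 2.72, 2.28 and 3.38 CPM in the air libraries, 2.74, 3.40 and 2.95 at 24 h and 4.60, 5.82 and 6.16 at 72 h. Air and 24 h were interleaved and the 3 libraries at 72 h lay above both. The log2 change at 72 h was 0.98 ± 0.19 against air (edgeR, adjusted p = 0.0301) and 0.87 ± 0.19 against 24 h (adjusted p = 0.0171). Over 7 libraries it was 1.12 ± 0.17 against air (edgeR, adjusted p = 0.0110). Only the fit without 24 h replicate 2 kept the call against air among the 9 that left out 1 library. The change ranged there from 0.85 to 1.15, with adjusted p up to 0.130 (edgeR). The call against 24 h was lost without 24 h replicate 1 or 3 or without 72 h replicate 2 or 3, at changes of 0.77 to 0.98 and adjusted p up to 0.0838 (edgeR).

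Clec9a is a lectin by which first-type dendritic cells sense the exposed actin of dead cells (ENSMUSG00000046080.17, chr6:129408862-129424763, plus strand). It had 8.96, 9.15 and 9.90 CPM in the air libraries, 9.15, 6.61 and 9.78 at 24 h and 10.9, 16.0 and 15.7 at 72 h. All 72 h values were above all others, the lowest of them in replicate 1, and the lowest at 24 h was replicate 2. So both low values came from the 2 libraries with other cells' markers and fewer alveolar macrophage markers. The change against air at 72 h was 0.60 ± 0.18 and was not called (edgeR, adjusted p = 0.0855), but over 7 libraries it was 0.79 ± 0.08 and was called (adjusted p = 0.00186). Against 24 h it was called over 9 libraries, at 0.74 ± 0.18 (edgeR, adjusted p = 0.0274). With 1 library left out this call held in 3 of 9 fits, those without 24 h replicate 2, 24 h replicate 3 or 72 h replicate 1, at changes of 0.60 to 0.90 over the 9 and adjusted p up to 0.132 (edgeR). It was lost with the replicate block and with only the 6 libraries compared. Some exon bases of Clec9a are shared with Clec1b on the same strand, so its counts could include reads of that gene.

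Batf3, the basic leucine zipper factor that first-type dendritic cells need, moved the other way (ENSMUSG00000026630.9, chr1:191097847-191108945, plus strand). As for Zbtb46, its RefSeq promoter printed above lies within the GENCODE gene, so it belongs to a start other than the outermost. Batf3 had 8.66, 6.65 and 10.1 CPM in the air libraries, 9.83, 9.24 and 8.33 at 24 h and 6.29, 5.69 and 4.81 at 72 h. All 72 h libraries were below every library of the other groups. Batf3 fell by 0.71 ± 0.17 on the log2 scale from 24 h to 72 h (edgeR, adjusted p = 0.0239). This call was lost without 24 h replicate 1, 72 h replicate 2 or 72 h replicate 3, at changes of -0.80 to -0.62 and adjusted p up to 0.0914 (edgeR). The change from air to 72 h was -0.60 ± 0.17 and was not called over 9 libraries (edgeR, adjusted p = 0.0710), nor over 7, where it was -0.67 ± 0.18 (adjusted p = 0.0620). With Air replicate 2, the library low in Xist, left out as well the change was -0.82 and was called (edgeR, adjusted p = 0.0380).

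Irf8 (ENSMUSG00000041515.10, chr8:120736358-120756694, plus strand) had 93.5, 94.1 and 99.4 CPM in the air libraries, 96.1, 94.7 and 87.9 at 24 h and 113, 93.9 and 96.5 at 72 h. The 3 groups overlapped and the spread within each was small. The log2 change was 0.08 ± 0.08 from air to 72 h, with a 95% interval of -0.10 to 0.25 (edgeR, adjusted p = 0.546), and 0.12 ± 0.08 from 24 h to 72 h. The highest value was that of 72 h replicate 1, which also held B cell markers. In 24 h replicate 2, which held more of those markers, Irf8 was 94.7 CPM. The part of B cells in these values was not tested. Over the 7 libraries without these 2 the change at 72 h was 0.02 ± 0.06 (edgeR, adjusted p = 0.899).

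Irf4, the factor of second-type dendritic cells (ENSMUSG00000021356.10, chr13:30749226-30766976, plus strand), had 10.5, 6.92 and 17.8 CPM in the air libraries, 19.2, 34.4 and 13.6 at 24 h and 33.0, 13.7 and 13.8 at 72 h. The groups overlapped, and the 2 highest values were those of 24 h replicate 2 and 72 h replicate 1. The log2 change at 72 h was 0.78 ± 0.54 against air (edgeR, adjusted p = 0.39) and over 7 libraries 0.25 ± 0.41 (adjusted p = 0.732). The part of B cells, which use Irf4, in the 2 high values was not tested.

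Cd209a, a lectin carried by some second-type dendritic cells (ENSMUSG00000031494.7, chr8:3743397-3748984, minus strand), had 0.807, 2.49 and 1.16 CPM in the air libraries, 0.861, 6.30 and 0.991 at 24 h and 3.80, 1.38 and 1.20 at 72 h. As with Irf4, the highest value at each ozone time came from the library with other cells' markers. The log2 change at 72 h was 0.52 ± 0.88 over 9 libraries (edgeR, adjusted p = 0.742) and -0.18 ± 0.43 over 7 (adjusted p = 0.819), so its sign differed between the fits. The gene belongs to a family of close copies, among which the counting could divide reads.

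Fscn1 encodes fascin, which bundles actin in the dendrites of mature dendritic cells (ENSMUSG00000029581.14, chr5:142960343-142973185, plus strand). It had 7.33, 8.49 and 12.1 CPM in the air libraries, 18.6, 25.9 and 12.1 at 24 h and 21.7, 27.9 and 28.3 at 72 h. The mean over 3 libraries was 9.30 ± 2.48, 18.8 ± 6.91 and 26.0 ± 3.70 CPM (SD, n = 3). Of the 3 libraries at 24 h, 2 stood above every air library, and the higher of these was replicate 2, which held other cells' markers. The third 24 h library was at the level of the highest air library, and the log2 change at 24 h, 1.02 ± 0.29, was not called (edgeR, adjusted p = 0.210). Over 7 libraries the log2 change at 24 h was 0.72 ± 0.25 and was not called (edgeR, adjusted p = 0.293). At 72 h it was 1.48 ± 0.30 against air (edgeR, adjusted p = 0.0355) and 1.62 ± 0.25 over 7 libraries (adjusted p = 0.0209). The change from 24 h to 72 h was 0.47 ± 0.29 and was not called (edgeR, adjusted p = 0.311). Among the 9 fits that left out 1 library, the call at 72 h against air held only without 24 h replicate 2, with changes of 1.33 to 1.72 and adjusted p up to 0.135 (edgeR).

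Il12b encodes the p40 chain shared by IL-12 and IL-23 (ENSMUSG00000004296.14, chr11:44400063-44414033, plus strand). It had 2.72, 2.08 and 3.18 CPM in the air libraries, 3.18, 2.48 and 1.27 at 24 h and 3.68, 8.50 and 9.64 at 72 h. Replicate 1 of 72 h was only just above the highest library of air and of 24 h, and the other 2 were well above. The log2 change from 24 h to 72 h was 1.65 ± 0.43 and was called (edgeR, adjusted p = 0.0327), while that from air to 72 h, 1.45 ± 0.42, was not (adjusted p = 0.0821). Over 7 libraries both were called, at 2.04 ± 0.40 (edgeR, adjusted p = 0.0226) and 1.79 ± 0.34 (adjusted p = 0.0303). Among the 9 fits with 1 library left out, 1 kept the call from 24 h to 72 h, that without 72 h replicate 1. The genes of the other chains were hardly detected. Il12a, whose p35 chain completes IL-12, had 0 or 1 count in the 7 libraries and 50 and 47 counts in 24 h replicate 2 and 72 h replicate 1. Il23a, whose p19 chain completes IL-23, had 0 to 4 counts in all 9. Neither passed the filter on low counts.

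Over the 7 libraries, edgeR called 6 of the 10 genes higher at 72 h than in air and 0 lower, where it called 4.46% of all tested genes higher and 2.66% lower. The 72 h group was then replicates 2 and 3 only, and the 24 h group replicates 1 and 3. That 72 h pair was the most alike within any group. Its chi-square of counts per degree of freedom was 7.41, against 20.8 to 142 in the other pairs. How far this sets the standard errors over 7 libraries was not tested. The added genes were Clec9a and Il12b, and the 4 called over 9 libraries were called again. The median log2 change of the 10 was 0.95, beside 0.00122 over all genes. From 24 h to 72 h 5 were called higher and 1 lower, where 6.59% and 8.5% of all genes were. The log2 changes from 24 h to 72 h were then 1.51 ± 0.21 for Itgae (edgeR, adjusted p = 0.00813), 1.82 ± 0.22 for Flt3 (0.00542), 1.09 ± 0.20 for Zbtb46 (0.0155), 0.77 ± 0.09 for Clec9a (0.00540) and -0.77 ± 0.20 for Batf3 (0.0377). At 24 h against air 0 of 10 were called over 7 libraries, with 1 at an unadjusted p under 0.05, where 0.0444% of all genes were called.

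The wider set of dendritic cell genes was read from 10 lists, which also hold members of the 10, at 72 h against air (edgeR, with 1.71% of all genes called higher over 9 libraries and 4.46% over 7). Of 13 tested first-type genes 2 rose over 9 libraries, Itgae and Cadm1, and 4 over 7, with Xcr1 and Clec9a added. The list's median log2 change was 0.20 and 0.27. Cadm1, an adhesion molecule of these cells, went from 1.31 ± 0.208 CPM in air to 2.65 ± 0.355 CPM at 72 h (SD, n = 3), a log2 change of 1.02 ± 0.25 (edgeR, adjusted p = 0.0495). Of 13 second-type genes 0 were called (2 at an unadjusted p under 0.05, 1 by DESeq2, 0 by limma voom), with a median of 0.61 over 9 libraries. Over 7 libraries 0 of 12 were called (2 at an unadjusted p under 0.05), with a median of 0.27. The most abundant of them, Sirpa and Klf4, had log2 changes of -0.12 and -0.34. Of 9 plasmacytoid genes 0 were called (0 at an unadjusted p under 0.05, 0 by DESeq2, 0 by limma voom), with a median of 0.74, and over 7 libraries 2 were called higher, Siglech and Ccr9, with a median of 0.45. Their most abundant genes, the inhibitory receptor Lair1 and the factor Runx2, had log2 changes of -0.17 and -0.24.

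Among 17 genes of precursors and growth factor receptors 3 rose and 0 fell at 72 h over 9 libraries, Flt3, Kit and Adam23, with a median of 0.83. Over 7 libraries 6 rose, with Dpp4, Btla and Kmo added, and 0 fell, with a median of 0.20. Adam23, a membrane protein of the ADAM family, had 2.64, 3.20 and 3.08 CPM in the air libraries, 2.96, 4.55 and 2.02 at 24 h and 8.06, 11.3 and 8.58 at 72 h. Its pattern was that of Flt3, with the 3 libraries of 72 h above all others, and the log2 change against air was 1.65 ± 0.28 (edgeR, adjusted p = 0.0243). Kit, the stem cell factor receptor, had 2.57 ± 0.307 CPM in air, and at 72 h it had 5.66 ± 0.0470 CPM (SD, n = 3), a log2 change of 1.14 ± 0.25 (edgeR, adjusted p = 0.0383). Leaving out 1 library at a time, Adam23 and Kit were each called in 2 of 9 fits, and Cadm1 in 1.

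Of 18 genes of mature migratory dendritic cells 2 rose, Fscn1 and Cacnb3, 0 fell, and 17 of the 18 changes were positive with a median of 1.10. Cacnb3, a calcium channel subunit used as a marker of migratory dendritic cells, had 3.98, 5.07 and 6.39 CPM in the air libraries, 6.97, 10.6 and 5.69 at 24 h and 11.6, 16.6 and 15.3 at 72 h. It was highest in all 3 libraries of 72 h, and the log2 change against air was 1.49 ± 0.26 (edgeR, adjusted p = 0.0281). The call held in 1 of 9 fits with 1 library left out. Over 7 libraries 7 of the 18 were called higher, and these included Ccr7, the receptor that guides mature dendritic cells to lymph nodes (named after its values were seen). Ccr7 had 11.0, 12.5 and 15.7 CPM in the air libraries, 16.3, 39.0 and 11.4 at 24 h and 33.8, 31.4 and 33.3 at 72 h. The 24 h value of 39.0 CPM was that of replicate 2, which held B and T cell markers. The log2 change of Ccr7 at 72 h was 1.33 ± 0.42 over 9 libraries (edgeR, adjusted p = 0.110) and 1.33 ± 0.18 over 7 (adjusted p = 0.0113).

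**Figure D4:**
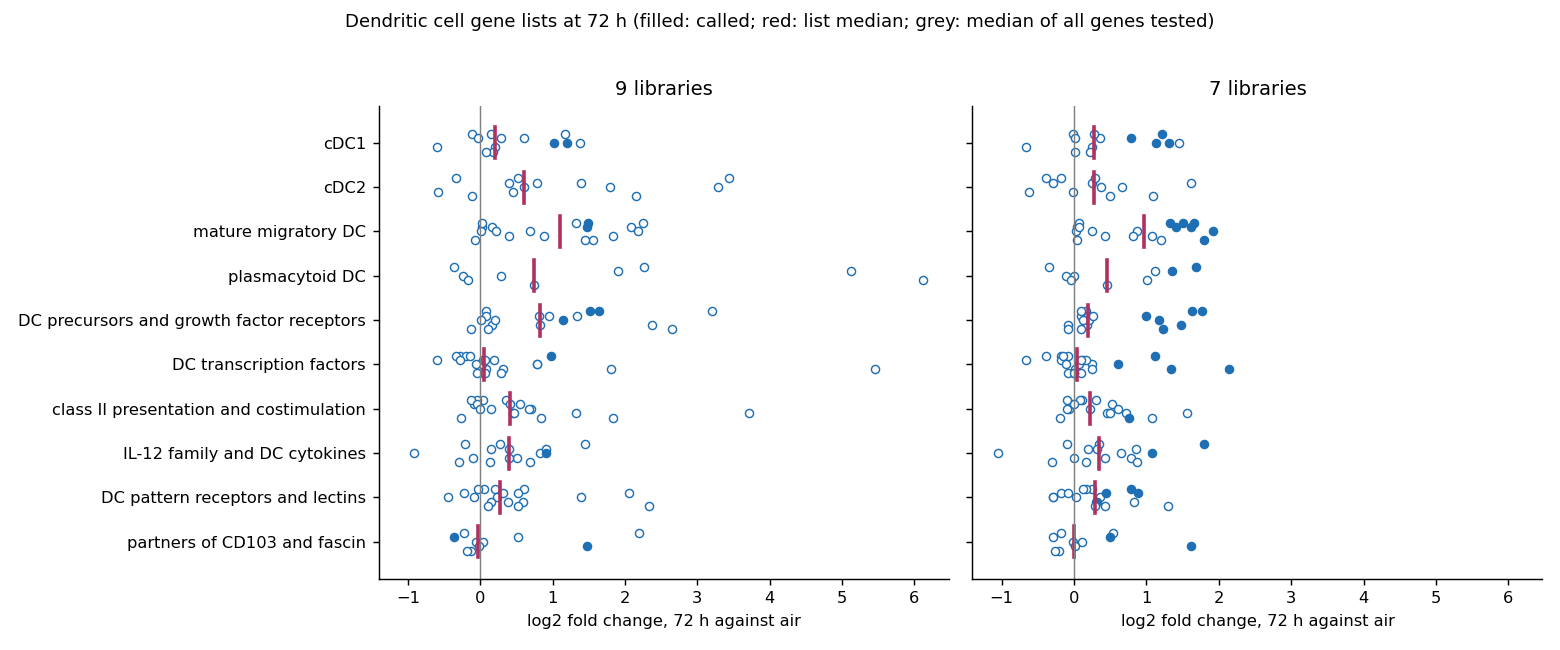
Log2 fold change at 72 h against air of every tested gene in 10 lists of dendritic cell genes, over 9 libraries and over 7, with called genes filled, list medians in red and the median of all genes in grey. The median of the mature migratory list is 1.10 over 9 libraries and 0.97 over 7, and that of the precursor list is 0.83 and 0.20.

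Of 22 dendritic cell transcription factor genes 1 rose at 72 h over 9 libraries, Zbtb46, and 0 fell, with a median of 0.05. Over 7 libraries 4 rose (Zbtb46, Cbfa2t3, Bcl11a and Runx3) and 0 fell, with a median of 0.04. The most abundant others, Notch2 and Spi1 (the gene of PU.1), had log2 changes of 0.31 and -0.19. Of 19 genes of class II presentation and costimulation 0 were called (4 at an unadjusted p under 0.05, 3 by DESeq2, 1 by limma voom), and Ctss and Cd74 had log2 changes of -0.05 and 0.46. Over 7 libraries 1 of the 19 was called higher, Ciita, the master regulator of class II genes, and 10 had an unadjusted p under 0.05. Of 18 pattern receptors and lectins 0 were called (2 at an unadjusted p under 0.05, 2 by DESeq2, 0 by limma voom), and Mrc1 and Clec7a had changes of -0.09 and 0.14. Over 7 libraries 4 of the 18 rose, Tlr9, Clec9a, Clec7a (0.31) and Ly75, and 0 fell. Among 15 tested genes of the IL-12 family and other dendritic cell cytokines 1 rose, the chemokine Cxcl16, from 11.5 ± 1.80 CPM in air to 21.6 ± 3.92 CPM at 72 h (SD, n = 3). Its log2 change was 0.91 ± 0.17 (edgeR, adjusted p = 0.0315), called in 1 of 9 fits with 1 library left out, and over 7 libraries Il12b was called as well. Among 10 integrin and actin genes that work with CD103 or fascin 1 rose, Fscn1, and 1 fell, Ezr. Ezr, the gene of the membrane linker ezrin, went from 587 ± 47.7 CPM in air to 457 ± 25.2 CPM at 72 h (SD, n = 3), a log2 change of -0.36 ± 0.09 (edgeR, adjusted p = 0.0471). It was not called over 7 libraries, at -0.30 ± 0.08 (edgeR, adjusted p = 0.0620), where Fscn1 and the integrin chain Itga4 rose. At 24 h against air edgeR called 0 genes in each of the 10 lists, where it called 0.00636% of all tested genes. In each list 0 to 4 had an unadjusted p under 0.05 (edgeR), DESeq2 called 0 or 1 and limma voom 0.

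Patterns across the 7 libraries were compared gene by gene among 11082 candidates, using the root mean square distance between log2 CPM values centred on each gene's own mean. Nearest to Itgae were Clec2i (distance 0.111), Sept3 (0.128) and the killer cell receptor Klrk1 (0.129). Nearest to Flt3 were Lamb3 (0.0816), a laminin chain, Npr1 (0.147), a natriuretic peptide receptor, and Tbc1d8 (0.148). Nearest to Zbtb46 were Plbd1 (0.142), Ahr (0.144), the aryl hydrocarbon receptor, and Sash1 (0.147). Nearest to Fscn1 were Dzip1 (0.142), Gpc1 (0.185), a glypican, and Rnf144a (0.189). These are descriptions over 7 libraries of 3 groups, so genes that differ between the groups by a like factor are near each other. Of the 12 genes, 5 (Clec2i, Lamb3, Dzip1, Gpc1 and Rnf144a) had a mean under 1 CPM over these 7 libraries and passed the minimum mean of 1 CPM through the other 2.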

How the data were processed

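Total RNA of lung macrophages was sequenced from stranded libraries, per the labels' protocols. The authors deposited estimated counts per gene, made with Trimmomatic 0.39, FastQC, Salmon and DESeq2 on GRCm38.p6, per the submitters' processing notes (strand setting and annotation release: not given in the sources used here). Column names matched the 9 sample labels, and 1 unnamed column was not used. Counts were rounded, filtered (filterByExpr) and scaled by TMM in edgeR 4.0.16 (R 4.3.3). The 3 groups were fitted together by robust quasi-likelihood, with Benjamini-Hochberg adjustment over 15713 genes and a call at 0.05. CPM use the TMM-scaled totals, and intervals are 95%. DESeq2 1.42.0, limma voom 3.58.1, other scalings and filters, a block and left-out libraries were alternatives. Members and lists were chosen with earlier results of these data known. Named from each list were up to 4 called genes with the smallest p at 72 h or, where none was called, the 2 most abundant. Replicates are separate mice.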

Additional observations from a re-analysis of the deposited data

Results flagged for a closer look

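For 6 of the 10 genes the change from air differed between the ozone times, by the test of 72 h against 24 h itself (edgeR's quasi-likelihood test, 9 libraries). That test called 18.2% of all tested genes, 5.39% higher and 12.8% lower. On the log2 scale the 72 h change exceeded the 24 h change by 1.35 for Itgae, 1.30 for Flt3, 0.87 for Zbtb46, 0.74 for Clec9a and 1.65 for Il12b. For Batf3 the difference was -0.71. Both changes share the same 3 air libraries, which drop out of this difference. In each of the 6 genes all 3 libraries at 72 h lay on one side of all 3 at 24 h. Over all genes tested this was so for 15% upward and 22.7% downward.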

How the results depend on the processing

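Scaling, filters, other tools, a replicate block and left-out libraries were tried. Against air at 72 h edgeR called 4 of the 10 genes, and DESeq2 called 7, edgeR with no filter on low counts 1, and the replicate block 0. At 24 h against air edgeR called 0 and DESeq2 called 1. From 24 h to 72 h 6 were called, but 3 with the replicate block and 3 with only the 6 libraries compared. Of all tested genes 18.2% were called there, 9.38% with the block and 12.4% with the 6 libraries. The joint test called 7 (and 13.2% of all tested genes), but 4 with DESeq2 size factors, 3 with no filter and 0 with the replicate block. Its share of all tested genes in those settings and with 1 library left out is not given here, so those counts have no background. Leaving out 1 library at a time gave 0 to 5 calls for 72 h against air, 1 to 6 for 72 h against 24 h and 0 to 5 for the joint test. For 72 h against 24 h these fits called 2.02% to 15.6% of all tested genes. The cause was not tested. Whether replicate numbers pair the libraries was not settled. Over 9 pairs with the same number, deviations from the group means correlated at -0.61 to 0.48. The lowest values, -0.61 and -0.54, came from pairs that held 24 h replicate 2 or 72 h replicate 1. Those 2 libraries also shift the group means, so these correlations cannot decide it. The block leaves fewer residual degrees of freedom. Over all genes the calls for 72 h against air were 860, and 506 with DESeq2 size factors, 299 with upper quartile scaling, 270 with no filter, 459 with a minimum of 1 CPM, 1936 with DESeq2, 35 with the block and 7 to 1625 with 1 library left out. At 24 h they were 1 with edgeR and 608 with DESeq2.

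Signs changed only for differences that no setting of edgeR called. For 24 h against air, without 24 h replicate 2 and 72 h replicate 1 (7 libraries) the log2 change was -0.19 for Flt3, 0.020 for Clec9a and -0.69 for Cd209a. With Air replicate 2 also left out (6 libraries) it was -0.27 for Flt3, -0.095 for Zbtb46, 0.0097 for Clec9a, -0.046 for Batf3 and -0.090 for Cd209a. Leaving out 1 library at a time gave -0.19 to 0.48 for Flt3, -0.013 to 0.27 for Zbtb46, -0.25 to 0.020 for Clec9a, -0.046 to 0.25 for Batf3, -0.52 to 0.081 for Il12b and -0.68 to 1.45 for Cd209a. For 72 h against air, over 7 libraries Cd209a had -0.18, Ctss 0.080 and Mrc1 0.025, and over 6 libraries Irf4 had -0.021, Ctss 0.013 and Mrc1 0.012. Upper quartile scaling gave 0.0065 for Ctss. With 1 library left out the ranges were -0.0085 to 0.11 for Irf8, -0.20 to 1.09 for Cd209a, -0.142 to 0.056 for Ctss and -0.163 to 0.0011 for Mrc1. For 72 h against 24 h Cd209a had 0.078 with limma voom, 0.21 with the replicate block, 0.50 over 7 libraries and 0.49 over 6, and with 1 library left out it ranged from -1.07 to 1.21 and Irf4 from -0.70 to 0.31.

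The 3 mice a group leave few degrees of freedom, and an exact permutation test of 3 against 3 could not go below p = 0.1. Low genes such as Xcr1 and Siglech rest on few counts, with 0.710 and 0.220 CPM in their lowest air library. Counts were also modest for Cd209a (41 to 302 a library), Il12b (60 to 473) and Zbtb46 (135 to 316).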

Other observations

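Further genes of the lists were called higher at 72 h than in air once 24 h replicate 2 and 72 h replicate 1 were left out, and they are named here after their values were seen. The chemokine Ccl5 had 1.70 ± 0.279 CPM in air (SD, n = 3) and 6.26 and 6.38 CPM in 72 h replicates 3 and 2, a log2 change of 1.92 ± 0.17 over 7 libraries (edgeR, adjusted p = 0.000801). It had 18.2 CPM in 24 h replicate 2 and 10.4 CPM in 72 h replicate 1. Xcr1, the receptor that defines first-type dendritic cells, had 1.10, 0.710 and 0.948 CPM in the air libraries, 1.08, 1.69 and 0.822 at 24 h and 2.01, 2.21 and 2.00 at 72 h. All 3 of its 72 h values were above all others, and its log2 change was 1.17 ± 0.29 over 9 libraries (edgeR, adjusted p = 0.0510) and 1.22 ± 0.24 over 7 (adjusted p = 0.0245). Tmem176a and Tmem176b, membrane proteins found in dendritic cells, had log2 changes of 1.51 ± 0.17 and 1.40 ± 0.19 over 7 libraries (edgeR, adjusted p = 0.00221 and 0.00563).

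Btla, an inhibitory receptor of dendritic cell precursors, B cells and T cells, had a mean of 2.30 ± 0.187 CPM in air (SD, n = 3), 4.85 and 5.74 CPM in 72 h replicates 3 and 2, and 40.9 and 32.7 CPM in 24 h replicate 2 and 72 h replicate 1. Over 9 libraries its log2 change at 72 h was 2.64 ± 1.40 (edgeR, adjusted p = 0.281) and over 7 it was 1.22 ± 0.16 (adjusted p = 0.00571). The plasmacytoid markers Siglech and Ccr9 were also called over 7 libraries, with log2 changes of 1.68 ± 0.33 and 1.35 ± 0.27 (edgeR, adjusted p = 0.0251 each), from 0.328 ± 0.115 and 0.386 ± 0.0752 CPM in air (SD, n = 3).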
